A study of Mus musculus with 2 samples.

Results

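Transcripts of 7 genes of the ezrin family and the apical cytoskeleton were followed across the cell types of the newborn mouse eye cup: Ezr, Rdx, Msn, Ermn, Slc9a3r1, Nf2 and Arhgef18. The members were the rows of the deposited feature list that carry these 7 symbols, of 31053 features in all, and each symbol matched 1 row. Cells came from eye cups at postnatal day 0, in 1 library of 3 pooled eye cups from Myrf fl/fl pups (called control) and 1 library of 3 pooled eye cups from pups that carried Rx>cre besides Myrf fl/fl (called mutant). Myrf encodes a membrane-anchored transcription factor, both groups carry floxed Myrf alleles, and only the mutant carries the transgene, which makes cre recombinase in the early eye field, the source of neural retina and retinal pigment epithelium (RPE). Lens, cornea and optic nerve had been dissected away. Since each genotype was a single library, every difference below lies between 2 libraries without a replicate check, and no p-value is given.

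Ezrin, radixin and moesin (the ERM proteins, from Ezr, Rdx and Msn) tether actin filaments to the plasma membrane. A FERM domain at the amino end holds the membrane side, a site at the carboxyl end holds actin, and phosphorylation opens the folded protein. In the RPE, ezrin is known for its place in the long apical microvilli that wrap photoreceptor outer segments and in the basal infoldings. Slc9a3r1 encodes a PDZ scaffold (also called NHERF1 or EBP50) that joins ERM proteins to channels and transporters, and Nf2 encodes merlin, a FERM protein that acts upstream of the Hippo growth pathway. Ermn encodes ermin, an actin-binding protein best known from myelinating oligodendrocytes, whose tail resembles that of the ERM proteins. Arhgef18 encodes p114RhoGEF, which activates RhoA at the apical junctions of epithelia.

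On the GRCm38 mouse genome with the GENCODE M21 annotation, Ezr lies at chr17:6738041-6782784 on the minus strand with up to 13 exons, Rdx at chr9:52047173-52088735 on the plus strand with up to 14, and Msn at chrX:96096042-96168552 on the plus strand with up to 13. Ermn is a short gene of 3 exons at chr2:58045113-58052864 on the minus strand. Slc9a3r1 lies at chr11:115163341-115181181 on the plus strand with 6 exons, Nf2 at chr11:4765845-4849536 on the minus strand with up to 17, and Arhgef18 at chr8:3393006-3456601 on the plus strand with up to 20. On the opposite strand, Ermn overlaps Galnt5 over 748 bases, Msn overlaps Gm24718 over 136 bases and Ezr overlaps Sytl3 over 4 bases. Gm24718 is not in the feature list, so it has no counts here. Whether counting used the strand is not given in the sources used here, but Galnt5 had only 2 UMIs in control and 0 in mutant RPE-like cells, and Sytl3 had 27 and 9, far below the members they overlap.

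The promoters of Ermn and Ezr are shown because these 2 members were the most concentrated in RPE-like cells, while their levels differed unequally between the genotypes. Each RefSeq window (GRCm38.p6) runs from 250 bases before the transcript start to 50 bases after it, 5′ to 3′ on the gene's own strand, at chr2:58052815-58053114 (minus) for Ermn and at chr17:6782731-6783030 (minus) for Ezr. Capitals mark a match to the SOX core motif (ACAAAG or ACAATG on either strand).
Ermn: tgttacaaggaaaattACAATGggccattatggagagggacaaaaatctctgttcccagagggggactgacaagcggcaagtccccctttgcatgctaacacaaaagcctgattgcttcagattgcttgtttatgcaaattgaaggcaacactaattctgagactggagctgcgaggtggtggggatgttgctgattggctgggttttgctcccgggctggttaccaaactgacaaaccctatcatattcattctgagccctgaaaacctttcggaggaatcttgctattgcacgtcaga
Ezr: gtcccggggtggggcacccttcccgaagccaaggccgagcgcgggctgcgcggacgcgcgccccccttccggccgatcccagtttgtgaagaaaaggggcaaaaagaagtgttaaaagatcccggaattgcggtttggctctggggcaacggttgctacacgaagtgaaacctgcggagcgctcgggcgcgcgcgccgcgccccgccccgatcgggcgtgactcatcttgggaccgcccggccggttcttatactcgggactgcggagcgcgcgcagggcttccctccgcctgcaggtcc
The Ermn window held 1 SOX core motif, ACAATG, 234 bases before the start. Such a motif was present in 28.6% of 32851 windows of the same length. Neither window held a MYRF core motif (CTGGCAC or CTGGTAC, present in 7.1% of windows), the MITF motif (TCATGTG or TCACGTG, 7.4%) or the OTX2 motif (TAATCC, 7.06%), all searched on both strands. Among the windows of the other members, Rdx had 1 MYRF-type match 13 bases before one of its starts and 2 SOX-type matches at another, and those of Msn, Slc9a3r1, Nf2 and Arhgef18 had none of these motifs. No match overlapped another, and a match is a description of the sequence only. The windows also differed in base composition, with 47% G and C for Ermn and 68% for Ezr.

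The control matrix held 14305 barcodes and the mutant matrix 12222, with medians of 4201 and 4952 UMIs (unique molecular identifiers, each marking a captured transcript), and 59 barcode sequences occurred in both. Filtering left 12449 control and 10797 mutant cells in 36 clusters. A single cluster of 511 control cells (4.1%) and 195 mutant cells (1.81%) was RPE-like, since all 10 RPE markers chosen for this work were enriched in it. Pmel, a melanosome protein, stood at 13700 CPM (UMIs of the gene per 1000000 UMIs of the cell class) in control RPE-like cells against 176 CPM in all other control cells, and at 10700 against 125 CPM in the mutant. RPE-like cells were shallower in the control, with a median of 2449 UMIs against 10369 in the mutant. Their content of markers of other cell types differed between the libraries in both directions. The 11 mesenchyme markers summed to 2360 CPM with none at 0 in control RPE-like cells, against 309 CPM with 2 at 0 in the mutant, the 6 ciliary margin markers to 265 against 62.9 CPM, and the 6 lens markers to 199 CPM with none at 0 against 26 CPM with 3 at 0. Markers of Schwann cells (6 genes, 112 against 17.2 CPM, 0 and 1 at 0), melanocytes (4 genes, 260 against 123 CPM, 0 and 1 at 0) and muscle (6 genes, 19.8 against 3.52 CPM, 0 and 3 at 0) were higher in the control as well. So were those of endothelial cells (7 genes, 47 against 21.1 CPM, none at 0) and leukocytes (7 genes, 57.6 against 40.5 CPM, 2 and 3 at 0), the classes rich in Msn, and of amacrine cells (8 genes, 336 against 215 CPM, 0 and 2 at 0). Other lists were higher in the mutant, with the 8 pericyte markers at 266 against 348 CPM, the 6 surface epithelium markers at 43.6 against 83.2 CPM, the 8 retinal ganglion markers at 58.6 against 83.6 CPM and the 9 retinal progenitor markers at 1530 against 1730 CPM. Values in cells over 8000 UMIs, and in cells low in mesenchyme markers, are therefore given beside the main ones, and the part of the other markers in the results was not tested. Myrf itself, the deleted gene, had 745 UMIs (227 CPM) in control and 61 UMIs (26.8 CPM) in mutant RPE-like cells. These libraries count 3′ ends, and whether the floxed part of Myrf reaches the counted end is not given in the sources used here, so that this level does not check the deletion itself.

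Ezr was highest in RPE-like cells in both libraries. Control RPE-like cells held 2954 Ezr UMIs, or 901 CPM with a 95% Poisson interval from 869 to 934, and mutant RPE-like cells held 1703, or 750 CPM from 714 to 786. All other cells together stood at 32 CPM in control and 30.4 CPM in mutant cells. Thus Ezr was 28.1 times and 24.7 times as high in RPE-like cells as elsewhere, and this small class supplied 58.5% of all Ezr UMIs of the control and 47.5% of those of the mutant. These intervals, like all others here, cover counting error only, since UMIs of 1 pooled library do not carry the spread between animals.

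Next in the order of Ezr came other epithelia and glia. In the control, surface epithelium-like cells had 199 CPM, astrocyte-like cells 137, Schwann-like cells 97 and melanocyte-like cells 83.5, and the intervals of each neighbouring pair from surface epithelium to melanocyte overlapped. In the mutant, surface epithelium-like cells at 273 CPM and astrocyte-like cells at 180 CPM again followed the RPE-like cells, with intervals apart from their neighbours. Ezr was low in retinal neurons, with 10.7 CPM in photoreceptor-like and 10.6 CPM in amacrine-like cells of the control. Red blood-like cells, in which Ezr reads can serve as a measure of free RNA, had 5.36 CPM in control and 7.76 CPM in mutant cells.

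**Figure D1:**
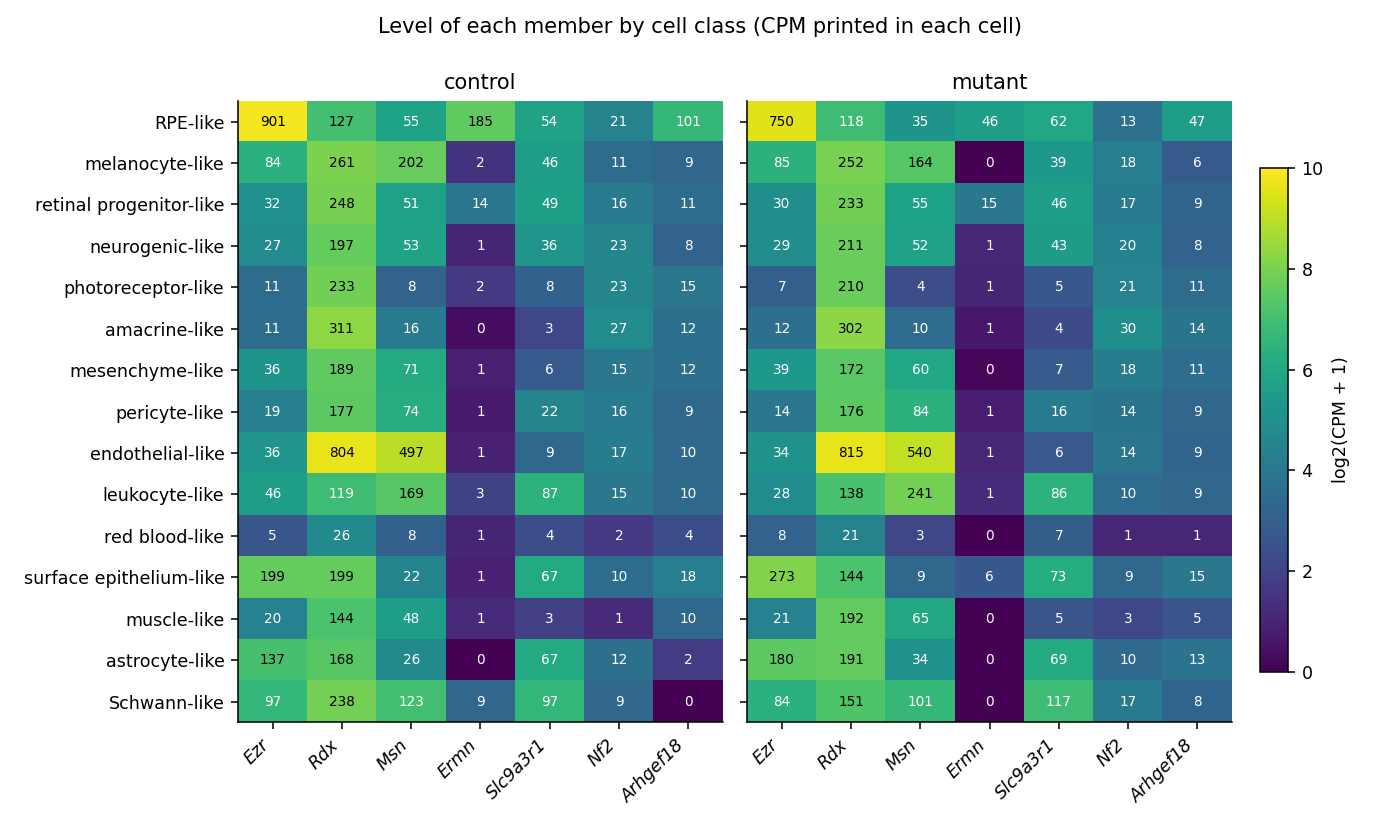
Heat maps of the level of each member (columns) in each cell class (rows) of the control and mutant libraries, coloured by log2(CPM + 1), with the CPM printed in each field. Only classes with at least 10 cells in each library are drawn. Ezr, Ermn and Arhgef18 peak in RPE-like cells (901, 185 and 101 CPM in the control), and Rdx and Msn peak in endothelial-like cells (804 and 497 CPM).

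Rdx and Msn followed another order. Rdx was detected in every class of at least 10 cells, and its highest level was in endothelial-like cells, with 2721 UMIs (804 CPM) in control and 1507 UMIs (815 CPM) in mutant cells. Amacrine-like cells followed at 311 CPM in control and 302 CPM in mutant cells, and their intervals overlapped those of the melanocyte-like cells after them. RPE-like cells lay near the lower end of the Rdx order, at 127 CPM (115 to 140) in control and 118 CPM (104 to 132) in mutant cells, or 0.52 and 0.505 times the level of all other cells. Msn also peaked in endothelial-like cells, at 497 CPM in control and 540 CPM in mutant cells. The classes after these were melanocyte-like (202 CPM) and leukocyte-like (169 CPM) in the control, whose intervals overlapped, and leukocyte-like (241 CPM) and melanocyte-like (164 CPM) in the mutant. In RPE-like cells, Msn stood at 55.2 CPM (47.4 to 63.9) in control and 35.2 CPM (27.9 to 43.8) in the mutant, and it was close to background in photoreceptor-like cells, at 8.01 and 4.12 CPM.

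Because a UMI counts a transcript end whatever the transcript's length, Ezr, Rdx and Msn could be expressed as shares of their summed UMIs. Ezr made up 83.2% (81.9 to 84.4, exact Clopper-Pearson) of the 3551 ERM UMIs of control RPE-like cells and 83.1% (81.4 to 84.7) of the 2050 of the mutant. Rdx made up 11.7% and 13%, and Msn 5.1% and 3.9%. When RPE-like cells were instead gated on pigment genes, Ezr made up 68.5% and 70.2%, Rdx 23.2% and 23%, and Msn 8.3% and 6.8%. After thinning each cell to 1000 UMIs, Ezr made up 81.1% (control) and 76.2% (mutant) and Msn 2.9% and 9.1%, where Msn was held by 11 control and 12 mutant cells. The summed level of the 3 genes was 1080 CPM in control and 902 CPM in mutant cells. In no other class did Ezr reach such a share. Rdx was the main ERM gene of retinal progenitor-like cells (75% in the control and 73.3% in the mutant), photoreceptor-like cells (92.6% and 94.9%) and amacrine-like cells (92.1% and 93.3%). Endothelial-like cells, whose summed ERM level of 1340 CPM in the control was above that of RPE-like cells, used Rdx (60.2%) and Msn (37.1%) with 2.7% Ezr. Leukocyte-like cells were the class in which Msn led, at 50.5% in the control and 59.1% in the mutant.

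**Figure D2:**
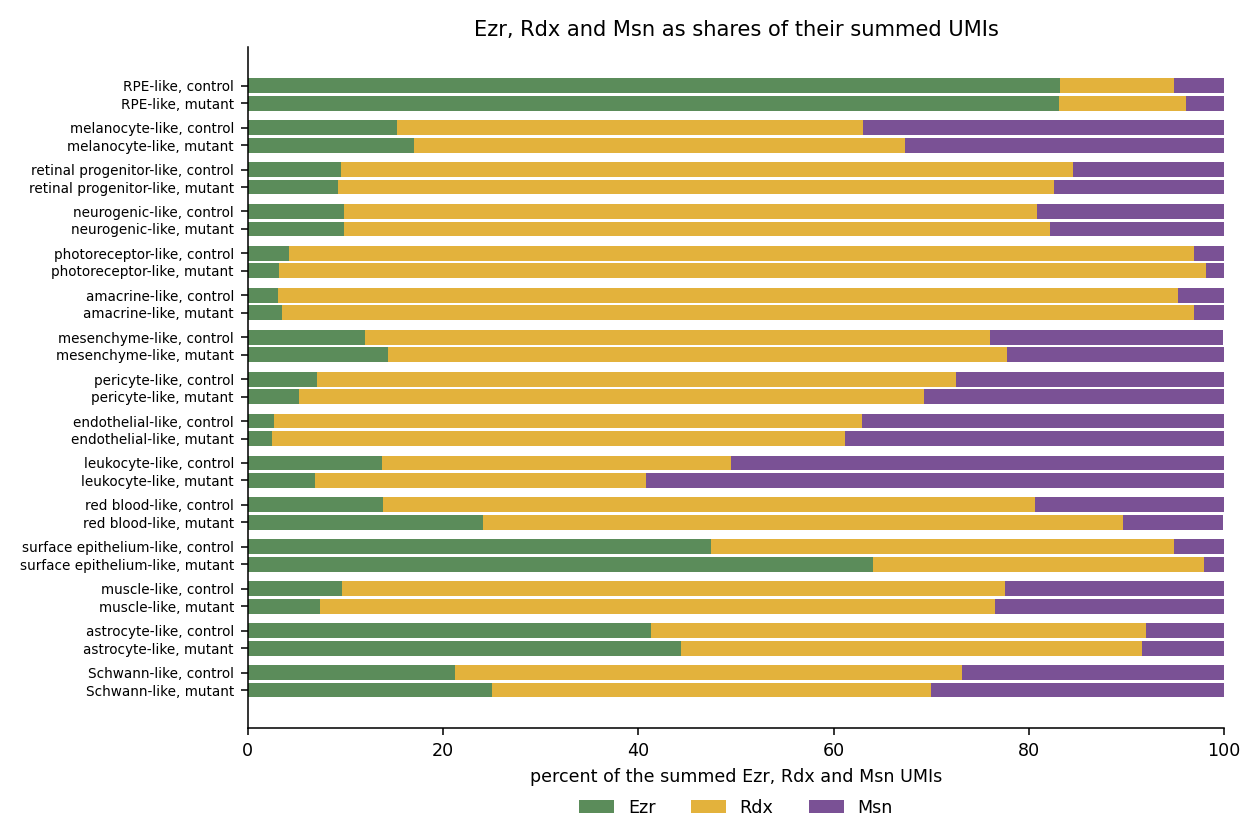
Stacked bars of Ezr, Rdx and Msn as percent of their summed UMIs (x axis) in each cell class of both libraries with at least 10 cells (y axis). Ezr takes 83.2% and 83.1% in control and mutant RPE-like cells, Rdx leads in retinal neurons, and Msn leads in leukocyte-like cells.

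Within RPE-like cells, none of the 3 ERM genes differed by 2-fold between the libraries. The log2 ratio of mutant over control (after adding 1 CPM to both) was -0.27 for Ezr, with a conditional Poisson 95% interval of the plain ratio from -0.35 to -0.18. It was -0.63 for Msn (-1.05 to -0.26) and -0.11 for Rdx (-0.34 to 0.11), whose interval includes 0. In cells over 8000 UMIs, the ratios were -0.35 for Ezr, -0.63 for Msn and -0.04 for Rdx. Among cells with mesenchyme markers at 0.1% of their UMIs or less (175 control and 169 mutant cells), they were -0.36, -0.66 and -0.01. At lower depths Msn rested on few UMIs, and its ratio varied in both directions. It was 0.04 (-1.51 to 1.33) in cells up to 4000 UMIs (30 control and 6 mutant UMIs), -1.56 between 4000 and 8000 UMIs (12 and 2 UMIs) and -1.38 when only barcodes of at most 2000 UMIs were clustered. One random draw of 1000 UMIs per cell, which left 11 control cells (2.71%) and 12 mutant cells (7.14%) with a Msn UMI, gave 1.48, whereas at 2000 UMIs per cell the shares were 8.62% and 7.28%. Rdx turned to 0.22 among cells of at most 2000 UMIs and to 0.15 in cells with Y-linked UMIs and without Xist.

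Ermn was the member with the largest difference between the genotypes. Control RPE-like cells held 606 Ermn UMIs, or 185 CPM (170 to 200), and mutant RPE-like cells held 104, or 45.8 CPM (37.4 to 55.5). The control level was 4.04 times that of the mutant, a log2 ratio of -1.99 (-2.33 to -1.71), and only 1.33% of the 11089 genes tested in these cells had a lower ratio. Ermn was nevertheless highest in RPE-like cells in both libraries, at 31.8 times the level of all other cells in the control and 7.02 times in the mutant. The share of the library's Ermn UMIs that lay in RPE-like cells was 61.4% in the control and 20.5% in the mutant.

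The difference in Ermn was present at every depth examined. Cells up to 4000 UMIs had 86 Ermn UMIs (174 CPM) in control and 3 (31.2 CPM) in mutant cells, a ratio of -2.44 (-4.78 to -0.88). Between 4000 and 8000 UMIs there were 35 (128 CPM) and 3 (21.4 CPM), and over 8000 UMIs there were 485 (193 CPM) and 98 (48.1 CPM), a ratio of -1.98 (-2.33 to -1.69). With each cell thinned at random to 1000 UMIs, 57 of 406 control RPE-like cells (14%) and 6 of 168 mutant RPE-like cells (3.57%) held an Ermn UMI, leaving out 105 and 27 shallower cells. Without thinning, the shares were 38.7% and 22.6%. Thinned photoreceptor-like cells held Ermn in 0.612% in the control and 0.261% in the mutant, so that the mutant RPE-like share was above the level of free RNA. With low mesenchyme markers, the ratio of Ermn was -1.99 (-2.33 to -1.70), as in all RPE-like cells.

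A second, lower site of Ermn was the retinal progenitor-like class. It held 270 Ermn UMIs (14 CPM) in control and 354 (15.1 CPM) in mutant cells, a log2 ratio of 0.10 (-0.12 to 0.34). After thinning, 1.45% (1.1 to 1.88) of control and 1.85% (1.48 to 2.28) of mutant progenitor-like cells had an Ermn UMI. The photoreceptor-like shares were 0.612% (0.167 to 1.56) and 0.261% (0.0316 to 0.94). The intervals of the 2 classes overlapped in the control and were apart in the mutant. The class was made of 4 clusters, and its Ermn was uneven across them. The same cluster led in both libraries, with 22.4 CPM (18.5 to 27) in control and 23 CPM (19.6 to 26.9) in the mutant, whereas the 2 clusters with the least Ermn had 8.3 and 8.67 CPM in control and 9.56 and 9.31 CPM in mutant cells. The 10 RPE markers of the leading cluster summed to 175 CPM (control) and 111 CPM (mutant), and the 6 ciliary margin markers to 443 and 613 CPM. Lens-like cells, 228 in the control and 1 in the mutant, had 17 Ermn UMIs (23.9 CPM) in the control. In the other named classes Ermn had at most 9 UMIs per library.

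**Figure D3:**
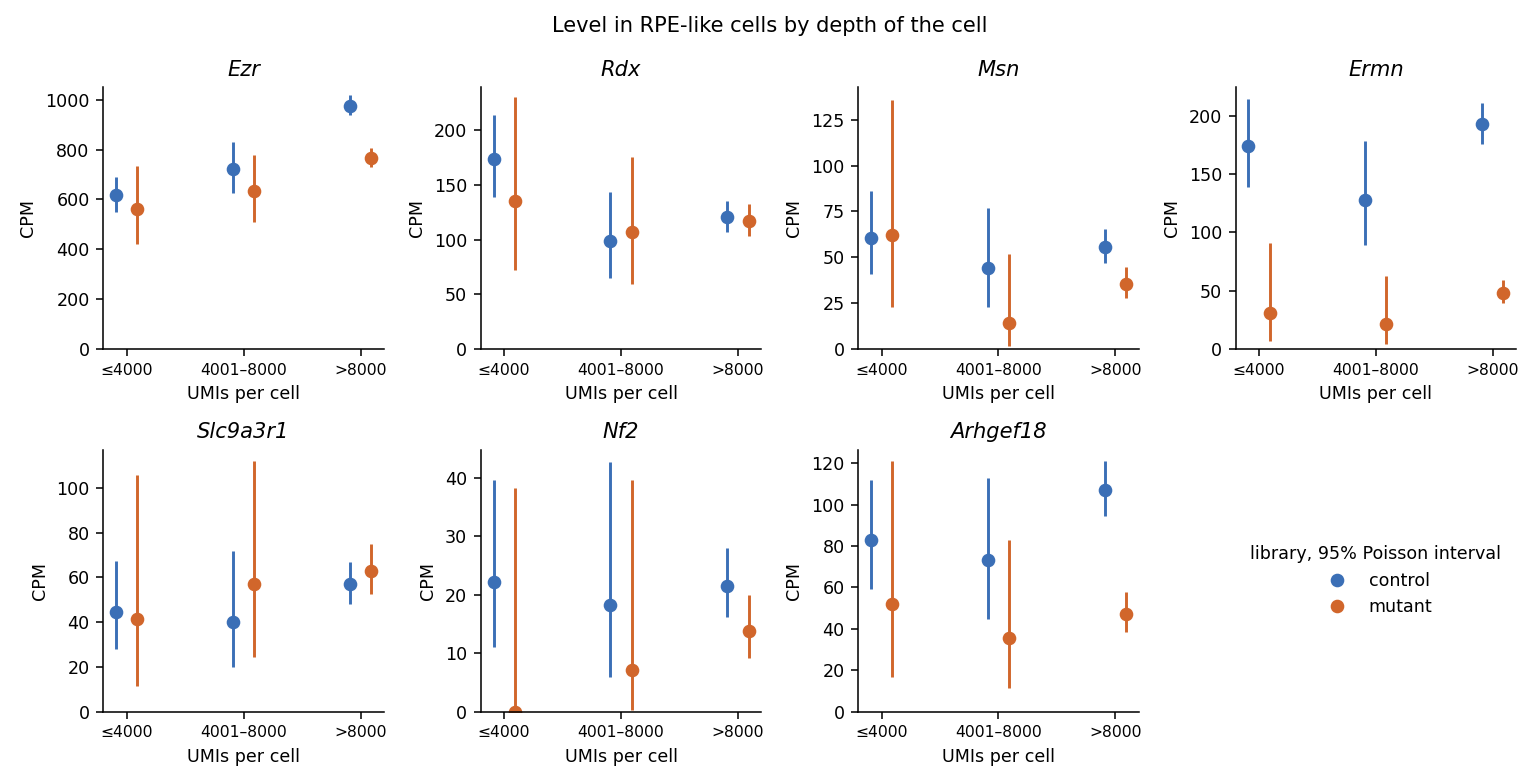
CPM of each member in RPE-like cells (y axes start at 0) of 3 depth ranges (x axis, UMIs per cell), in control (blue) and mutant (orange), with 95% Poisson intervals as bars. The control and mutant intervals of Ermn are apart in each range, from 174 against 31.2 CPM in the shallowest cells to 193 against 48.1 CPM in the deepest.

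Slc9a3r1, the scaffold, was the member with a ratio above 0. RPE-like cells held 176 UMIs (53.7 CPM, 46 to 62.2) in the control and 140 (61.6 CPM, 51.8 to 72.7) in the mutant, a log2 ratio of 0.20 (-0.13 to 0.53) whose interval includes 0. The ratio was 0.14 (-0.21 to 0.50) over 8000 UMIs and 0.14 (-0.20 to 0.49) in cells low in mesenchyme markers. It varied more where counts were few. The ratio was -0.18 in cells with Y-linked UMIs and -0.09 in cells up to 4000 UMIs (22 control and 4 mutant UMIs). It was 0.95 in cells of at most 2000 UMIs and 1.25 with cells thinned to 1000 UMIs (15 control and 13 mutant cells with a UMI). Its level in RPE-like cells was 1.84 times that of all other cells in the control and 2.01 times in the mutant, log2 ratios of 0.86 and 0.98. With cells thinned to 1000 UMIs these were 0.23 and 1.55. For Slc9a3r1, RPE-like cells came after Schwann-like, leukocyte-like, astrocyte-like and surface epithelium-like cells in both libraries, and no neighbours among these 5 classes differed beyond counting error. In leukocyte-like cells the level was 86.8 CPM in control and 86.4 CPM in mutant cells. Retinal progenitor-like cells had 49.1 and 46.1 CPM, photoreceptor-like cells 7.56 and 5.49 CPM, and amacrine-like cells 3.35 and 3.89 CPM, so that within the retina Slc9a3r1 was higher in progenitors than in neurons.

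Nf2, the merlin gene, had no marked peak in any class. It had 70 UMIs (21.3 CPM, 16.6 to 27) in control and 29 (12.8 CPM, 8.55 to 18.3) in mutant RPE-like cells, a log2 ratio of -0.70 (-1.42 to -0.10). Over 8000 UMIs the ratio was -0.61, and its interval (-1.36 to 0.04) included 0, as did that in cells low in mesenchyme markers (-0.53, -1.28 to 0.13). At these counts a difference in Nf2 was thus only just detectable. Amacrine-like cells led its order, at 27.3 CPM in control and 30.2 CPM in mutant cells, and in the control the intervals of all neighbours from amacrine-like down to endothelial-like cells overlapped, RPE-like cells included. The level in RPE-like cells was 1.2 times that of all other cells in the control and 0.698 times in the mutant, log2 ratios of 0.25 and -0.49 whose intervals (-0.10 to 0.62 and -1.10 to 0.01) included 0. With cells thinned to 1000 UMIs they were -0.30 and -1.35.

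Arhgef18 resembled Ermn in being concentrated in RPE-like cells and lower there in the mutant. Control RPE-like cells held 330 UMIs, or 101 CPM (90.1 to 112), and mutant RPE-like cells 106, or 46.7 CPM (38.2 to 56.4). The log2 ratio was -1.09 (-1.44 to -0.79), with the control at 2.16 times the mutant level, and 4.43% of the genes tested had a lower ratio. RPE-like cells were first in its order in both libraries, at 9.37 times the level of all other cells in the control and 4.95 times in the mutant. All other classes with at least 100 cells in each library lay between 8.11 and 14.7 CPM in control and between 7.73 and 13.7 CPM in the mutant. Over 8000 UMIs, 269 control and 96 mutant UMIs gave a ratio of -1.17 (-1.54 to -0.84), and cells low in mesenchyme markers gave -1.14 (-1.50 to -0.83). In the shallower ranges the intervals included 0, at -0.66 (-2.37 to 0.67) up to 4000 UMIs and -1.02 (-2.81 to 0.42) between 4000 and 8000 UMIs.

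Of the 7 members, 2 (Ermn and Arhgef18) were lower by at least 2-fold in mutant RPE-like cells and 0 were higher by that much. Among all 11089 genes with at least 20 UMIs over both libraries in these cells, 5.22% were lower and 2.53% higher by at least 2-fold. The median log2 ratio was -0.63 over the members and -0.02 over all genes tested, and 6 of the 7 members had a ratio below 0, as had 5751 of the 11089 genes. The interval of 1 of these 6, Rdx, included 0. The members were chosen with earlier results of these data known, and the paper had already reported lower Ermn and Arhgef18 in mutant RPE. These counts therefore cannot show that the family as a whole is lower. The call of Arhgef18 lies close to the 2-fold line, and its ratio was -0.94 with a gate on pigment genes, -0.97 with a pseudocount of 10 CPM, -0.83 with cells thinned to 1000 UMIs and -0.40 in cells with Y-linked UMIs. In the draw of 1000 UMIs per cell, Ermn was the only member of 6 tested that was lower by 2-fold, and Msn (1.48) and Slc9a3r1 (1.25) were higher, while at 2000 UMIs the share of cells with Slc9a3r1 was 7.24% in control and 7.95% in mutant cells. In the main values all 7 members passed the limit of 20 UMIs.

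In 7 other classes with at least 100 cells in each library, most intervals of the members' ratios included 0. Rdx, which had the most UMIs, ranged from -0.15 in photoreceptor-like to 0.10 in neurogenic-like cells, and its intervals excluded 0 in retinal progenitor-like (-0.09, -0.15 to -0.03) and mesenchyme-like cells (-0.13, -0.24 to -0.03). Ezr lay between -0.51 in photoreceptor-like and 0.14 in mesenchyme-like cells, with every interval including 0. For Msn, the ratio was -0.62 (-1.22 to -0.13) in amacrine-like and -0.22 (-0.40 to -0.06) in mesenchyme-like cells, against 0.12 (0.01 to 0.24) in endothelial-like cells. Arhgef18 had -0.31 (-0.62 to -0.05) in retinal progenitor-like cells, where the cluster with the most Ermn stood at 15.4 CPM (12.1 to 19.2) in control and 7.92 CPM (5.95 to 10.3) in the mutant, while the intervals of the other 3 clusters overlapped. Slc9a3r1 and Nf2 had no interval that excluded 0 outside RPE-like cells. The difference of these ratios between classes cannot be tested with 1 library per genotype.

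**Figure D4:**
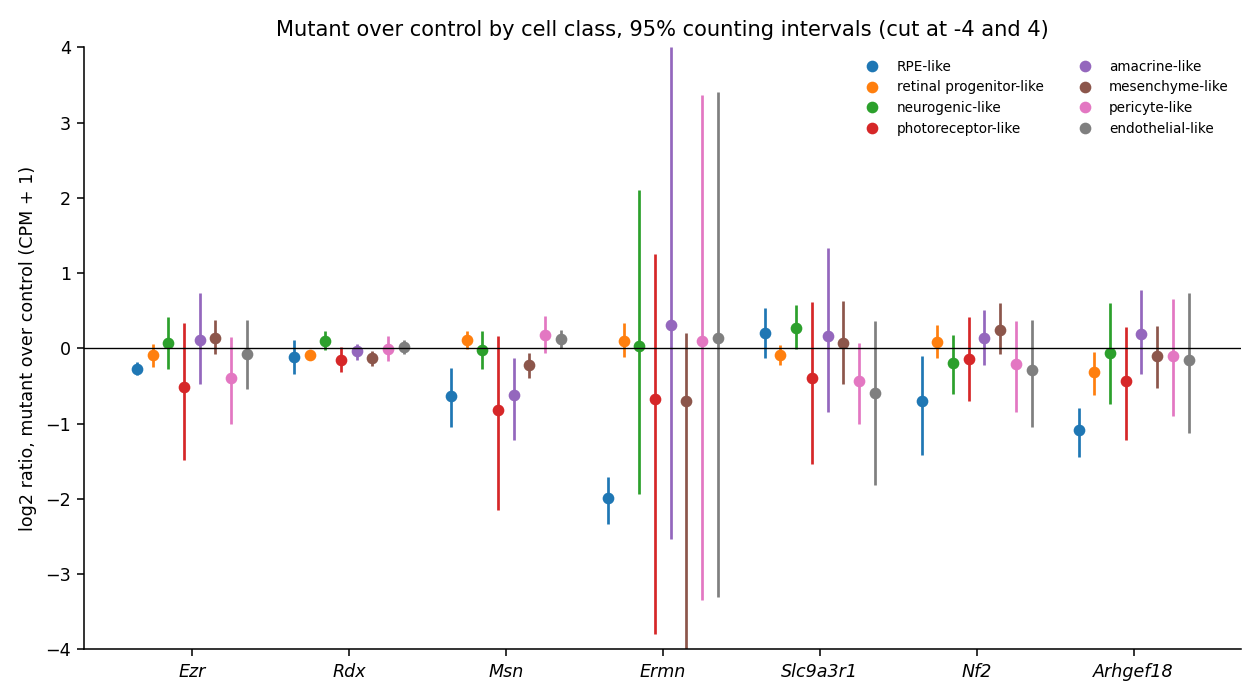
Log2 ratio of mutant over control (y axis, both levels raised by 1 CPM) of each member (x axis) in the 8 classes with at least 100 cells in each library, with bars for the conditional Poisson 95% interval of the plain ratio, cut at the axis limits. The RPE-like points of Ermn (-1.99) and Arhgef18 (-1.09) lie below those of the other classes.

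Both libraries held cells with Xist and cells with Y-linked transcripts, which come from different animals of a pool, so that RPE-like cells could be divided without use of the members. Xist without any Y-linked UMI was found in 81 control and 76 mutant RPE-like cells, and the reverse in 133 and 33. Ermn was lower in the mutant in both sets. It had 188 (209 CPM) against 70 UMIs (50.1 CPM) in the first, a ratio of -2.04 (-2.47 to -1.65), and 260 (183 CPM) against 13 (28.2 CPM) in the second, a ratio of -2.66 (-3.63 to -1.90). Ezr was lower in the first set at -0.54 (-0.67 to -0.41), with 1020 against 704 CPM, but not clearly in the second at -0.07 (-0.23 to 0.10), with 901 against 859 CPM. Arhgef18 likewise stood at -1.46 (-2.0 to -0.99) in the first and -0.40 (-0.99 to 0.15) in the second. The mutant levels of Arhgef18 were 37.9 CPM (28.4 to 49.6) and 73.8 CPM (51.1 to 103) in the 2 sets, and the control levels 106 and 97.3 CPM. Msn had -0.84 (-1.42 to -0.31) and -0.43 (-1.33 to 0.36). Whether the ratios differ between the 2 sets was not tested, because how many animals stand behind each set is not given. Both sets come from the same libraries, so they are not replicates, and placing a cell in a set depends on its depth. Since the sets had unequal parts in control and mutant, the main ratios cannot be told apart from this make-up.

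Members were also compared between RPE-like cells with and without a Myrf UMI within each library, for cells over 8000 UMIs. In the control, 132 cells had a Myrf UMI (median 17291.5 UMIs) and 19 had none (median 11001 UMIs). Ermn stood at 204 CPM (186 to 224) in the former and 83 CPM (50 to 130) in the latter, Ezr at 1040 (999 to 1080) and 336 CPM (265 to 420), and Arhgef18 at 113 (99.3 to 127) and 52.4 CPM (27.1 to 91.6). Msn, which was not concentrated in RPE-like cells, stood at 59.6 CPM (50 to 70.5) and, from 3 UMIs, 13.1 CPM (2.7 to 38.3). The intervals of these 4 members were apart, whereas those of Rdx (122 and 105 CPM), Slc9a3r1 (57.4 and 52.4 CPM) and Nf2 (21.5 and 21.8 CPM) overlapped. In the mutant, 41 cells had a Myrf UMI and 68 had none, and Ermn (39.6 and 53.7 CPM), Ezr (767 and 766 CPM) and Arhgef18 (50.8 and 44.8 CPM) had overlapping intervals in the 2 sets. Cells of 1 library are not replicates, and depth differed between the sets. Myrf was itself concentrated in RPE-like cells, and markers of RPE or other classes were not examined in the 19 control cells without it. Whether those cells were poorer in RPE transcripts in general was not tested.

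Likeness of pattern was measured as Pearson's r of log2(CPM + 1) among 12098 genes. It ran over 16 points (8 classes in 2 libraries, of which the points of 1 library share its depth). The nearest genes differed from member to member. Nearest to Ezr were Tmem55a (r = 0.966), Gprc5b (0.965) and 1810058I24Rik (0.955). Nearest to Ermn were Rlbp1 (0.957), which encodes the visual cycle protein CRALBP, the cation channel gene Trpm3 (0.947) and Popdc3 (0.946). For Arhgef18 they were Tmem27 (0.965), Adra2c (0.961) and the homeobox gene Gsx2 (0.955). Msn went with Rell1 (0.970), Hip1 (0.961) and Tpst2 (0.95), and Rdx with H2-D1 (0.964), Rasal2 (0.943) and Arhgap17 (0.943). Slc9a3r1 went with Dbi (0.946), Cyp39a1 (0.928) and Rps27l (0.926). Nf2 had the weakest likenesses, with Pgbd5 (0.910), Fam212b (0.888) and Eid2b (0.884). These correlations describe 8 classes and carry no test. Genes picked as the nearest of so many have a high r by selection, and Rlbp1 is also an RPE marker used for naming.

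Genes that work with the members were examined in RPE-like cells as 8 lists with 146 genes found in the feature list, of which 122 passed the limit of 20 UMIs. Of these, 10 were lower and 5 higher by at least 2-fold in the mutant, beside 5.22% and 2.53% of all genes tested, and their median log2 ratio was -0.05, against -0.02 over all genes. Of the 10 lower genes, 6 were in the list of the microvillus core and base. That list held 5 of 11 lower genes in cells over 8000 UMIs, 5 of 11 in cells low in mesenchyme markers and 3 of 8 after thinning.

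Of 25 microvillus genes, 18 were tested, 6 were lower by at least 2-fold, 1 was higher, and the median ratio was -0.33. The limit for testing applied to UMIs summed over both libraries, so a gene could pass mostly on its control UMIs. With a limit of 100 UMIs, which Eps8, Eps8l2 and Ush1c did not reach, 13 were tested, 3 were lower and 1 higher, with a median of -0.32. Fscn1, which encodes the actin bundler fascin, had 818 UMIs (249 CPM) in control and 37 (16.3 CPM) in mutant RPE-like cells, a log2 ratio of -3.86 (-4.45 to -3.46). Cdhr1, a protocadherin gene best known from photoreceptors, had 161 (49.1 CPM) and 18 UMIs (7.92 CPM), and Clic4, of the intracellular chloride channel family, had 92 (28.1 CPM) and 24 (10.6 CPM). The gene that was higher was Myo5b, the motor of apical recycling endosomes, with 42 (12.8 CPM) and 65 UMIs (28.6 CPM). Eps8 (42 against 7 UMIs), Eps8l2 (50 against 6) and Ush1c (19 against 1) were the remaining lower genes, named after their values were seen. Other genes of the list differed less. For contrast, Clic6, of the same family as Clic4, had -0.48 (327 and 233 CPM), Pdpn, a membrane partner of ezrin, also had -0.48 (517 and 371 CPM), and Myo7a, the melanosome motor of the RPE, had -0.09 (54.6 and 51.1 CPM).

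Of the related genes named by rule, Fscn1 was lower by over 2-fold in 4 subsets of RPE-like cells. It stood at 249 against 12.3 CPM over 8000 UMIs, at 255 against 14.6 CPM in cells low in mesenchyme markers, at 268 against 14.3 CPM in cells with Xist and at 229 against 10.8 CPM in cells with Y-linked UMIs. Cdhr1, Epb41l4b, Frmd4b, Capg, Cgnl1, Tln2 and Epb41l4a also stayed past 2-fold in these 4 subsets, and the remaining 4 genes named by rule lost the 2-fold difference in 1 of them. Clic4 had 15 control and 16 mutant UMIs (-0.50) in cells with Xist. In cells with Y-linked UMIs the ratio was -0.71 for Plekhh1, 0.59 for Myo5b and 0.90 for Podxl. All these genes had been named for passing 2-fold in the whole RPE-like class. The subsets are parts of that class, so staying past 2-fold in them is no separate check. Some counts were small, such as 9 control and 5 mutant UMIs of Capg in cells with Xist. Epb41l4a had 8 and 8 UMIs in cells with Y-linked UMIs. Outside RPE-like cells the level of Fscn1 was 153 CPM in control and 146 CPM in mutant cells.

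Of the apical RhoA and actomyosin list, 19 of 20 genes were tested, 1 was lower and 1 higher, with a median of 0.13. With a limit of 100 UMIs, 13 were tested, with 0 lower and 0 higher, and after thinning 9 were tested, with 0 lower and 2 higher. The lower gene was Epb41l4b, whose FERM protein is known to activate p114RhoGEF, the product of Arhgef18, with 70 UMIs (21.3 CPM) in control and 7 (3.08 CPM) in mutant cells, a ratio of -2.45 (-4.16 to -1.67). The higher was Cgnl1, which encodes the junction protein paracingulin, with 30 (9.15 CPM) and 51 UMIs (22.4 CPM). Rhoa itself differed by -0.05 (339 and 327 CPM). The exchange factor genes Arhgef11 and Arhgef12, related to Arhgef18 in function, had 0.30 and 0.20.

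Other FERM domain genes numbered 28, of which 25 were tested, 2 were lower and 2 higher, with a median of -0.05. With a limit of 100 UMIs, 14 were tested, 1 was lower and 1 higher, and after thinning 7 were tested, with 0 lower and 0 higher. Frmd4b had 157 UMIs (47.9 CPM) in control and 31 (13.6 CPM) in mutant RPE-like cells, and Plekhh1 had 25 and 4. Tln2, which encodes a talin that links integrins to actin, had 42 (12.8 CPM) and 81 UMIs (35.6 CPM), and Epb41l4a had 18 and 32. Among 16 genes of membrane partners of the ERM proteins, 8 were tested and 1, Podxl, which encodes the anti-adhesive sialomucin podocalyxin, was higher, with 42 (12.8 CPM) and 65 UMIs (28.6 CPM). The list's median was 0.29.

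In the remaining lists few genes moved by 2-fold. None of 11 tested genes for ERM kinases and their phosphatase did (median -0.14), where Slk, a kinase of ERM proteins, had the lowest ratio of those tested at -0.86 (59.8 and 32.6 CPM). Of 8 tested PDZ scaffold genes 0 did (median -0.21), nor did any of 21 Hippo genes beside Nf2 (median -0.03). After thinning, 2 of 7 kinase genes and 2 of 11 Hippo genes were lower by 2-fold, and 1 Hippo gene was higher and 1 PDZ scaffold gene lower both in cells over 8000 UMIs and in cells low in mesenchyme markers. Of 12 genes for actin and its binding proteins, 1, Capg, which encodes a filament capping protein, was lower, with 33 (10.1 CPM) and 9 UMIs (3.96 CPM), and the median was 0.10. In cells over 8000 UMIs, and in cells low in mesenchyme markers, 1 gene of this list was lower and 1 higher.

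**Figure D5:**
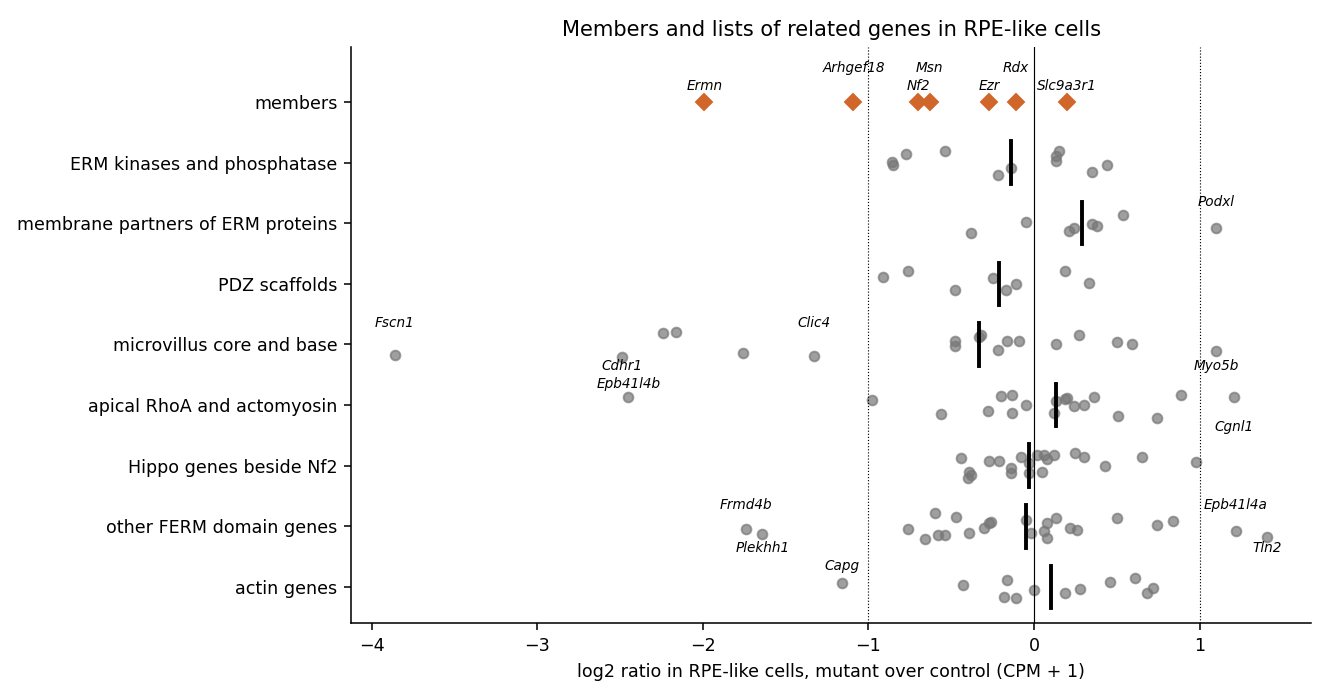
Log2 ratio of mutant over control in RPE-like cells (x axis, both levels raised by 1 CPM) for the 7 members (orange diamonds) and for the tested genes of each list of related genes (grey points, 1 per gene, with jitter along the y axis), with the list's median as a black bar and dotted lines at 2-fold. Fscn1 (-3.86) is the farthest point, and the Hippo genes cluster about 0.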

How the data were processed

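Raw UMI counts per gene and barcode were used as deposited, without normalization. Per the labels and methods, the authors made 10x Genomics 3′ libraries from papain-dissociated eye cups and counted UMIs with Cell Ranger 7.1.0 on mm10, while the matrix headers name version 3.1.0, and the annotation is not given in the sources used here. Barcodes with at least 200 genes and at most 15% mitochondrial UMIs were kept. Doublets were removed per library by Scrublet score (scanpy 1.11.5) at an expected 0.8% per 1000 cells (1682 control and 1230 mutant barcodes), since Scrublet's own threshold marked 0% and 5.48%. Seurat 5.3.0 in R 4.3.3 integrated both libraries (1952 variable genes, 30 components, Louvain resolution 1), with 175 genes (members, lists, sex-linked genes and pigment cell markers) kept out. The study's limit of 2000 UMIs was an alternative only, since 80.2% of control and 92.1% of mutant barcodes exceeded it.

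Clusters were named X-like when at least 3 markers, and no fewer than were missed, were held by at least 10% of cells and were at least 2 times as high as elsewhere. Clusters stayed unnamed (8 of 36, with 24% of control and 17.9% of mutant cells) when shallow, when led by another class's markers, or when they shared at least 5 of 10 leading genes with a shallower cluster named otherwise. The limits were chosen after the clusters had been seen, so names can differ from those of the study. Sums of UMIs per class and library were scaled to CPM. Intervals are 95% (exact Poisson, conditional Poisson for ratios, Clopper-Pearson for shares) and cover counting error only. The code was tested on simulated data. Both libraries were mapped to groups by their genotype labels, and groups were compared without a test. All 7 members are described. Other genes were named by rule: the 3 most like each member, and list genes past 2-fold with at least 20 UMIs (up to 4 with the most UMIs per list), besides a few named for contrast after their values were seen. The members and lists were chosen with earlier results of these data known. Promoter windows came from RefSeq and positions from GENCODE, in which 31011 of 31053 identifiers matched. Alternatives covered doublets, filters, clustering, depth, scaling and the pseudocount (1 or 10 CPM), and the limit on mesenchyme markers was added after seeing the data.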

Additional observations from a re-analysis of the deposited data

Results flagged for a closer look

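Msn was flagged because its ratio of mutant over control had opposite signs in 2 classes, with counting intervals on opposite sides of 0. The log2 ratio was -0.63 (-1.05 to -0.26) in RPE-like cells, from 181 control and 80 mutant UMIs, and 0.12 (0.01 to 0.24) in endothelial-like cells, from 1680 and 999 UMIs. In RPE-like cells the ratio was -0.63 over 8000 UMIs, -1.56 between 4000 and 8000 UMIs (12 and 2 UMIs), 0.04 up to 4000 UMIs (30 and 6 UMIs), -1.38 when only barcodes of at most 2000 UMIs were clustered and 1.48 in a draw of 1000 UMIs per cell (11 and 12 cells with a Msn UMI), whereas at 2000 UMIs per cell 8.62% of control and 7.28% of mutant cells held one. The difference between the 2 classes was not tested, since each genotype was 1 library. Endothelial-like cells had a median depth of 4411 UMIs (control) and 8997.5 UMIs (mutant).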

How the results depend on the processing

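With 1 library per genotype, no replicate could be left out, and the depth of rare classes limits what could be detected: in RPE-like cells 3 counts correspond to 0.915 CPM in control and 1.32 CPM in mutant cells. No paired analysis was possible because each genotype had 1 sample. Over 20 alternatives, Ermn kept its sign in 20 (-2.87 to -1.41), as did Arhgef18 (-1.63 to -0.40), Ezr (-0.54 to -0.07) and Nf2 (-1.39 to -0.39 where the mutant had any Nf2 UMI), while Msn (-1.56 to 1.48), Rdx (-0.36 to 0.22) and Slc9a3r1 (-0.18 to 1.25) did not. The cause of the shifts below was not tested. Msn reversed to 0.04 in cells up to 4000 UMIs and to 1.48 when each cell was thinned to 1000 UMIs, and its mutant ratio of RPE-like over all other cells reversed to 0.54 with thinning. Thinning to 1000 UMIs left 11 control and 12 mutant cells with a Msn UMI, and thinning to 2000 UMIs 25 and 11 (8.62% and 7.28%). In cells up to 4000 UMIs the ratios were -0.14 for Ezr, -0.36 for Rdx, -2.44 for Ermn, -4.54 for Nf2 (0 mutant UMIs, so that the pseudocount sets this value) and -0.66 for Arhgef18. Between 4000 and 8000 UMIs they were -1.56 for Msn and -2.53 for Ermn. Reclustering of cells with at most 2000 UMIs (212 control and 45 mutant RPE-like cells) gave 0.22 for Rdx, -1.38 for Msn, -1.41 for Ermn, 0.95 for Slc9a3r1, -5.16 for Nf2 (0 mutant UMIs) and -1.63 for Arhgef18. Cells with Xist gave -0.54 for Ezr and -1.46 for Arhgef18, and cells with Y-linked UMIs gave -0.07 for Ezr, 0.15 for Rdx, -2.66 for Ermn, -0.18 for Slc9a3r1 and -0.40 for Arhgef18. Ezr was -0.16 with a gate on pigment genes, -0.12 as the mean of the cells' own CPM and -0.36 with low mesenchyme markers. Slc9a3r1 was 1.25 after thinning, and Ermn was -2.87 with at most 5% mitochondrial UMIs. The shares of Ezr, Rdx and Msn in control RPE-like cells were 68.5%, 23.2% and 8.3% with the gate (70.2%, 23% and 6.8% in the mutant) and 81.1%, 16.0% and 2.9% after thinning (76.2%, 14.7% and 9.1% in the mutant). Ezr and Rdx were 84.7% and 10.5% in control cells over 8000 UMIs, and with no doublets removed 81.7% and 12.9% in the control and 81.3% and 14.9% in the mutant. Of the related genes, 4 were lower and 3 higher with at least 100 UMIs, where fewer genes were tested, and 3 were higher after thinning. Scaling by the median ratio of 5647 genes shifted all log2 ratios by 0.04 and changed no member's sign.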

Other observations

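Outside the classes with at least 100 cells in each library, surface epithelium-like cells (125 control and 69 mutant) had more Ezr and less Rdx and Msn in the mutant. Msn had 25 UMIs (21.9 CPM) in control and 8 (9.09 CPM) in mutant cells, a log2 ratio of -1.18 (-2.62 to -0.07). Ezr had 227 UMIs (199 CPM) in control and 240 (273 CPM) in mutant cells, a log2 ratio of 0.46 (0.19 to 0.73), and Rdx had 227 (199 CPM) and 127 (144 CPM), a ratio of -0.46 (-0.78 to -0.14). Ezr thus took 47.4% of the ERM UMIs of these cells in the control and 64% in the mutant. The class joined 2 clusters in unequal parts, 92 control and 38 mutant cells led by Krt14 and 33 and 31 cells led by Krt6a and Krt13, and the part of this make-up in the values was not tested. Leukocyte-like cells (263 and 70) had 300 Msn UMIs (169 CPM) in control and 162 (241 CPM) in mutant cells, a ratio of 0.51 (0.23 to 0.79). These values rest on counting intervals of 1 library each and were chosen after all classes had been seen.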
